A study of Mus musculus with 21 samples.

Results

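The transcription factors described here mark hypothalamic nuclei and their neighbours in the mouse brain. A list of 36 gene symbols was matched to the deposited count table, and all 36 were found, each as 1 of its 21654 genes. The list held 8 factors of the arcuate and tuberal region, 5 of the ventromedial and basal region, 4 of the paraventricular lineage, 3 of the suprachiasmatic and anterior region, 7 of GABAergic and incertal neurons, 3 of the mammillary and posterior region and 6 of the thalamus or of several regions. It had been drawn up to judge where in the hypothalamus the punches lay, and its rule uses gene symbols alone.

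RNA was measured by RNA-seq in the ventral hypothalamus (VH), labelled as the circumventricular part of the hypothalamus. Each of 21 libraries was made from mRNA pooled from 2 male C57BL/6J mice, 12 to 14 weeks old when bought. Mice ate regular chow throughout (RC NoDS, n = 5), a high-fat diet throughout (HFD NoDS, n = 5), or were moved by a diet switch (DS) from chronic chow to acute high-fat diet (RC → HFD, n = 6) or from chronic high-fat diet to acute chow (HFD → RC, n = 5). All mice, controls included, were kept awake for 3 hours before they were killed at ZT6, the middle of the light phase. The design asks how earlier and current diet act on the VH, and the members ask whether the 4 groups held the same tissue. Replicate numbers are those of the sample names.

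Region transcription factors are set up during development, when the hypothalamus is divided into nuclei, and many stay on in the adult neurons of their nucleus. Isl1 and Tbx3 are kept in feeding neurons of the arcuate nucleus, Nr5a1 (steroidogenic factor 1) is the classical marker of the ventromedial nucleus, and Otp and Sim1 specify neurosecretory neurons of the paraventricular lineage. In tissue sampled by punch, levels of such factors depend on which nuclei were taken. Fewer cells of a type and less RNA per cell cannot be told apart in bulk tissue.

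Counts summed to between 16380781 and 16390598 reads per library after re-sampling by the authors. Libraries differed in how many genes they captured: among 3116 genes averaging 5 to 50 reads, the share with a count of 0 ran from 1.12% to 7.22% in RC NoDS, from 2.31% to 22.4% in RC → HFD, from 5.68% to 31.9% in HFD → RC and from 7.70% to 32.9% in HFD NoDS. All 45 pairs of libraries within groups differed by more than the sampling of reads (chi-square per degree of freedom from 6.47 to 38.1). The spread behind each test is that between pools of animals. Defining hypothalamic genes were abundant, with means of 8304 reads for Pomc, 837 for Agrp, 10476 for Avp and 1336 for Trh. The study left out punches in which Agrp and Pomc were not enriched enough over Hcrt. High Pomc and Agrp were thus partly selected for and do not test punch position, and the range of Hcrt was limited by the same step. Hcrt still ran from 28 to 1051 reads, against 426 to 1476 for Agrp and 5012 to 11836 for Pomc. The cortical Neurod6 and the thalamic and cortical Slc17a7 averaged 1.38 and 3.76 reads. Other genes of the same lists were abundant. Means of at least 50 reads were held by 8 of 10 genes listed for the thalamus, such as Calb2 with 4198. The same was true of 3 of 7 for cortex and hippocampus, such as Rasgrf2 with 6887. Whether tissue of those regions was present was not tested.

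Of the 36 members, 29 averaged at least 50 reads and were tested, 5 averaged between 5 and 50 (Sim1, Lhx6, Meis2, Barhl1 and Lmx1a) and 2 averaged fewer than 5 (Sim2 and Lhx8). Ordered by mean level per length, in reads scaled by exon length and library size (RPKM), Otp was first with 38.4 ± 9.80 (SD, n = 21), followed by Fezf1 with 26.6 ± 7.82, Nkx2-1 with 22.7 ± 3.03, Nr5a1 with 18.1 ± 6.17, Bsx with 16.9 ± 5.66, Isl1 with 15.8 ± 3.28 and Tbx3 with 12.8 ± 2.79. Nr5a1, Bsx and Isl1 differed from one another by less than the SD of any of them. After Otp, the next 6 places were held by factors listed for the ventromedial and basal or the arcuate and tuberal region.

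**Figure D1:**
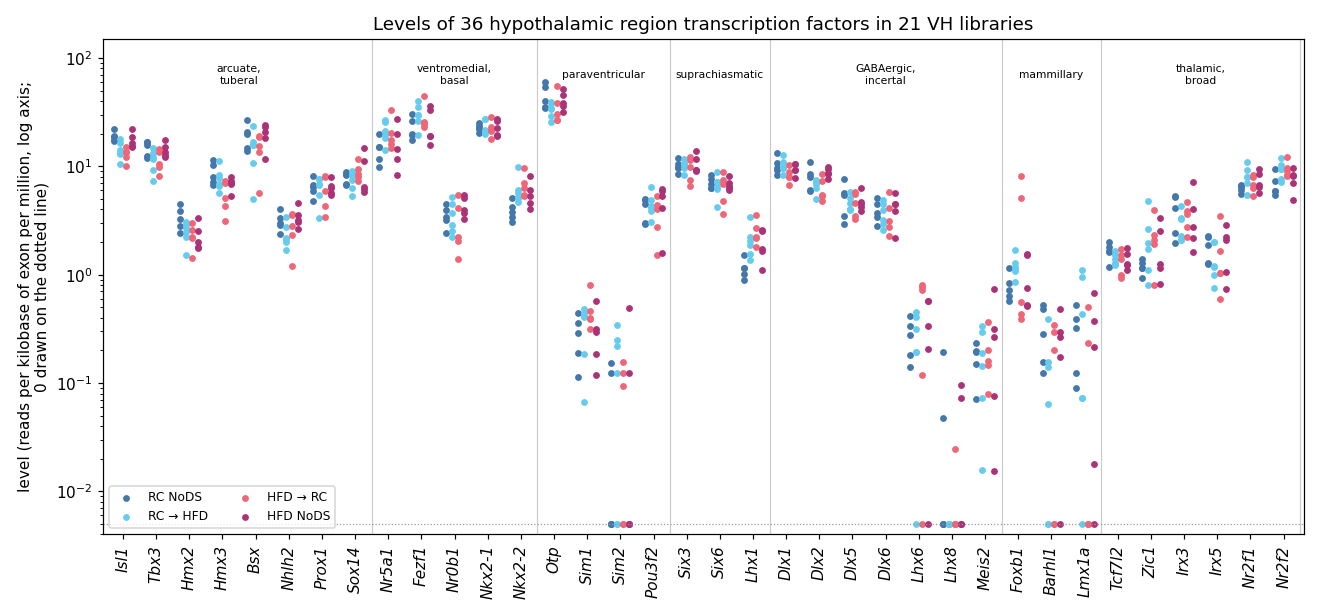
Levels of the 36 members in RPKM on a log axis, 1 point per library, coloured by diet group and ordered by region, with counts of 0 drawn on the dotted line. Otp, Fezf1, Nkx2-1 and Nr5a1 lie highest, and Sim1, Sim2, Lhx6, Lhx8, Meis2, Barhl1 and Lmx1a lie at 1.10 RPKM or lower in all libraries.

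Within families, levels per length differed widely. Otp stood at 38.4 RPKM while Sim1, another determinant of the paraventricular nucleus, stood at 0.345 ± 0.171. Nkx2-1, which specifies the whole basal hypothalamus, stood at 22.7 RPKM and its relative Nkx2-2 at 5.62 ± 1.82. Dlx1, Dlx2, Dlx5 and Dlx6, homeobox genes of GABAergic neurons, stood at 9.63, 7.38, 4.70 and 3.83 RPKM, whereas Lhx6, a factor of incertal and pallidal interneurons, stood at 0.335 ± 0.246. The mammillary factor Foxb1 stood at 1.46 ± 1.83 RPKM, and Barhl1 and Lmx1a, which mark the neighbouring posterior hypothalamus, at 0.209 and 0.291.

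The least expressed members were uneven between libraries. Lhx8, a factor of basal forebrain cholinergic neurons, had a count of 0 in 16 of 21 libraries and at most 8 reads. Sim2 was at 0 in 10 libraries, Barhl1 and Lmx1a in 5 each and Lhx6 in 3, while Sim1 ranged from 8 to 95 reads and Meis2 from 3 to 139. With a minimum mean of 5 reads instead of 50, none of Sim1, Lhx6, Meis2, Barhl1 and Lmx1a had an unadjusted p under 0.05 in any pair of groups (edgeR). No difference in them was thus detected, and whether depth or uneven capture limited this was not tested.

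Reads of 10 members may be shared with a gene on the opposite strand, since their exons overlap and the strand setting of the counting is not given in the sources used here. Six3 shared 106 bases with Six3os1, which averaged 574 reads, and Foxb1 shared 418 bases with B230323A14Rik, which averaged 42.5 reads. The other members concerned were Tbx3, Prox1, Nkx2-2, Six6, Dlx1, Zic1, Irx3 and Nr2f1, whose partners averaged at most 58.5 reads.

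Promoters of 4 members are shown, Isl1 and Lhx1 because they were called between diet groups, and Fezf1 and Bsx as members of 2 sets of factors that varied in opposite directions between libraries. Promoters of Nr5a1 and Tbx3, on which that covariation also turns, are not shown. Shown are the 250 bases before the transcription start (RefSeq, build GRCm38.p6, gene strand), with each CCAAT (or ATTGG) and each GGGCGG (or CCGCCC) in capitals. Isl1 is at chr13:116309689-116309938 on the minus strand, Lhx1 at chr11:84525535-84525784 on the minus strand, Fezf1 at chr6:23248265-23248514 on the minus strand and Bsx at chr9:40873877-40874126 on the plus strand.
Isl1: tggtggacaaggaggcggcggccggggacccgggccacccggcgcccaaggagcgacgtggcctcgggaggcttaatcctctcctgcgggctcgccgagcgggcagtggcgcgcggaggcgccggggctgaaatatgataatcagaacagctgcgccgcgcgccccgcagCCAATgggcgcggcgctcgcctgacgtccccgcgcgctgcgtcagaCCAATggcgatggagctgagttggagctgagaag
Lhx1: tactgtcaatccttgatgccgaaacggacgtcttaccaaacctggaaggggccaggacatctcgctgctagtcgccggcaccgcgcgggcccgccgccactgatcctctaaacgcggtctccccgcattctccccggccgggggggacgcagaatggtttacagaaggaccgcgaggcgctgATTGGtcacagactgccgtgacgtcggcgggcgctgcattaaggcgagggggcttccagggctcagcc
Fezf1: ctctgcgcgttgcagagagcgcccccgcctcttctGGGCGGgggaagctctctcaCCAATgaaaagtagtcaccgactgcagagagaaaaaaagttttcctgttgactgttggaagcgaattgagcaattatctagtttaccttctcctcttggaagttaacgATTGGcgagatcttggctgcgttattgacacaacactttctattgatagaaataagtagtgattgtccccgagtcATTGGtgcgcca
Bsx: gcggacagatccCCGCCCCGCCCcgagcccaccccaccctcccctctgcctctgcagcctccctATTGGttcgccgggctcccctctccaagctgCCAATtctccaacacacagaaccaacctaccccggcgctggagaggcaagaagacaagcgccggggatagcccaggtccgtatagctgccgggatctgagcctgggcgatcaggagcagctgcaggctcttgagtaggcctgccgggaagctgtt
CCAAT, the letters of the CCAAT box, stood on either strand in all 4, with 2 matches for Isl1, 1 for Lhx1, 3 for Fezf1 and 2 for Bsx, and in 33.8% of the 32851 promoters in the RefSeq table cut to the same length. Of 29 members with a promoter there, 16 (55.2%) held it. GGGCGG, the GC box, was held by 17 of the 29 members (58.6%) and by 32.7% of all promoters, TATAAA by 6 (20.7%) and 12.4%, and TAATTA, a core bound by many homeodomain factors, by 0 and 4.84%. A member was counted if any promoter listed for it held the letters, whereas the shares of all promoters count each promoter once. These shares are therefore not of the same kind. The window of Fezf1 held 1 GC box and that of Bsx held 2.

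Diet groups were compared for each of the 12768 genes averaging at least 50 reads (edgeR, Benjamini-Hochberg adjusted p under 0.15, the study's threshold). Between the diets kept throughout, RC NoDS and HFD NoDS, 0 of 29 members were called, with 0.0783% of all genes called. At an unadjusted p under 0.05 there were 2 members, Lhx1 and Nkx2-2, where 7.41% of all genes lay, and 0 members had groups without overlap (0.963% of genes). The fold change of Nkx2-2 there was 0.52 ± 0.22 on the log2 scale, and 0.21 with Hcrt as a covariate. Hcrt was itself called there, with a log2 fold change of 2.71 (edgeR adjusted p = 0.051), so that fit cannot separate it from diet. Between the DS groups, RC → HFD and HFD → RC, 0 members were called (0.00783% of genes), 3 had an unadjusted p under 0.05 (5.35% of genes) and 0 were without overlap (0.47% of genes). DESeq2 and limma-voom also called 0 members in both comparisons. The edgeR test across all 4 groups called 0 (0.149% of genes), where DESeq2 called 2, Isl1 and Lhx1, with 8 members at an unadjusted p under 0.05 in edgeR (7.97% of genes).

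Between RC NoDS and HFD → RC, 2 of 29 members were called, with 0.282% of all genes called. Isl1, the LIM homeobox factor of arcuate neurons, fell and Lhx1, a LIM homeobox factor of the suprachiasmatic nucleus and the anterior hypothalamus, rose. In mm9, Isl1 (ENSMUSG00000042258) lies at chr13:117088478-117099896 and Lhx1 (ENSMUSG00000018698) at chr11:84331479-84338923, both on the minus strand. Levels are given below as normalized counts (CPM, counts scaled to library size with TMM factors).

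Isl1 stood at 55.5, 48.2, 42.9, 43.8 and 47.1 CPM in the RC NoDS libraries and at 30.9, 37.9, 25.3, 34.3 and 34.2 CPM in HFD → RC. Every HFD → RC library lay below every RC NoDS library. In RC → HFD it ranged from 26.3 to 45.4 with a median of 34.9 CPM, and in HFD NoDS it stood at 38.1, 38.9, 41.5, 55.2 and 47.4 CPM. Both DS groups lay low, and HFD → RC also lay below every HFD NoDS library without overlap. Isl1 was lower in HFD → RC than in RC NoDS, the log2 fold change being -0.55 ± 0.13 (SE; edgeR adjusted p = 0.14). Against RC NoDS the fold change of RC → HFD was -0.40 (adjusted p = 0.64), and against HFD NoDS those of HFD → RC and RC → HFD were -0.44 (adjusted p = 0.48) and -0.30 (adjusted p = 0.61), which did not pass. With 1 library left out its fold change against RC NoDS in HFD → RC ran from -0.61 to -0.47. The call was lost without RC NoDS replicate 1, 2 or 5 (adjusted p = 0.46, 0.27 and 0.29), RC → HFD replicate 7, 8 or 10 (0.19, 0.17 and 0.17), HFD → RC replicate 13, 14, 15 or 17 (0.33, 0.17, 0.36 and 0.17) or HFD NoDS replicate 21 (0.16).

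Lhx1 stood at 4.19, 3.66, 4.73, 4.78 and 6.26 CPM in RC NoDS and at 14.7, 9.22, 11.1, 7.47 and 8.91 CPM in HFD → RC, again without overlap. RC NoDS was the low group, since RC → HFD ranged from 5.58 to 14.2 CPM with a median of 8.12 and HFD NoDS libraries stood at 10.4, 10.6, 4.51, 7.17 and 6.78 CPM. The log2 fold change from RC NoDS to HFD → RC was 1.12 ± 0.27 (edgeR adjusted p = 0.14), and those to RC → HFD and HFD NoDS were 0.86 (adjusted p = 0.57) and 0.74 (adjusted p = 0.64). With 1 library left out the first of these ran from 0.95 to 1.24. The call was lost without RC NoDS replicate 1, 2, 3 or 5 (adjusted p = 0.44, 0.30, 0.19 and 0.36), RC → HFD replicate 7, 8 or 9 (0.19, 0.17 and 0.17) or HFD → RC replicate 13, 14 or 15 (0.36, 0.21 and 0.31). RC NoDS also had the lowest median share of genes at 0, 2.34%, against 15.1% in HFD → RC. With that share as a covariate the fold change of Lhx1 was 1.06 (adjusted p = 0.48) and that of Isl1 -0.48 (adjusted p = 0.67), and neither was called.

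Nkx2-2, a homeobox factor of the ventral hypothalamus also found in oligodendrocyte precursors, followed the order of Lhx1. It had 163, 203, 242, 144 and 181 reads in RC NoDS, or from 8.82 to 14.7 CPM, and stood at 20.0, 15.2, 27.9, 15.6 and 18.1 CPM in HFD → RC. It was the third member whose libraries did not overlap in this comparison, where 1.35% of all genes did not overlap. Its log2 fold change of 0.77 ± 0.22 was not called by edgeR (adjusted p = 0.20). DESeq2 called it beside Isl1 and Lhx1, 3 members in all, and edgeR called it without RC → HFD replicate 12, HFD → RC replicate 16 or HFD NoDS replicate 20.

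Further members with an unadjusted p under 0.05 in this comparison, 10 of 29 in all with 8.1% of all genes, were not called. Those higher in HFD → RC were Foxb1 by 1.90 ± 0.60 on the log2 scale, Zic1 by 0.90 ± 0.40, Nr5a1 by 0.50 ± 0.24 and Nr2f2, an orphan nuclear receptor of the ventromedial nucleus and of vessels, by 0.46 ± 0.17. Lower were Hmx3, a factor of arcuate growth hormone-releasing hormone neurons, with -0.70 ± 0.23, Tbx3 with -0.38 ± 0.16 and Dlx1 with -0.30 ± 0.13. Several of these rest on a few libraries or move with another measure. Leaving out replicate 15 of HFD → RC changed Nr5a1 to 0.26 and Zic1 to 0.58. With the share of genes at 0 as a covariate Nr5a1 was 0.32. With Hcrt, the lateral hypothalamic orexin gene, as a covariate Zic1 was 0.10 and Dlx1 was -0.15, and leaving out replicate 5 of RC NoDS changed Dlx1 to -0.19. Hcrt itself was higher than in RC NoDS, by 1.90 in HFD → RC (edgeR adjusted p = 0.21) and by 1.46 in RC → HFD (0.69). Fits with it therefore cannot separate Hcrt from the diet groups. Without both replicates 13 and 17 of HFD → RC Dlx1 was -0.18.

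Between RC NoDS and RC → HFD, 0 of 29 members were called (0.0392% of genes), 9 had an unadjusted p under 0.05 (6.51% of genes) and 0 were without overlap (1.15% of genes), and DESeq2 and limma-voom called 0. The 9 were Lhx1 and Isl1, given above, Nkx2-2 with a log2 fold change of 0.63 ± 0.21, Nr2f2 with 0.44 ± 0.16, its paralog Nr2f1 with 0.37 ± 0.15, Nr5a1 with 0.54 ± 0.23, Zic1 with 0.87 ± 0.39, Tbx3 with -0.37 ± 0.15 and Otp with -0.42 ± 0.17. Zic1 was 0.47 without replicate 12 of RC → HFD and 0.26 with Hcrt as a covariate.

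**Figure D2:**
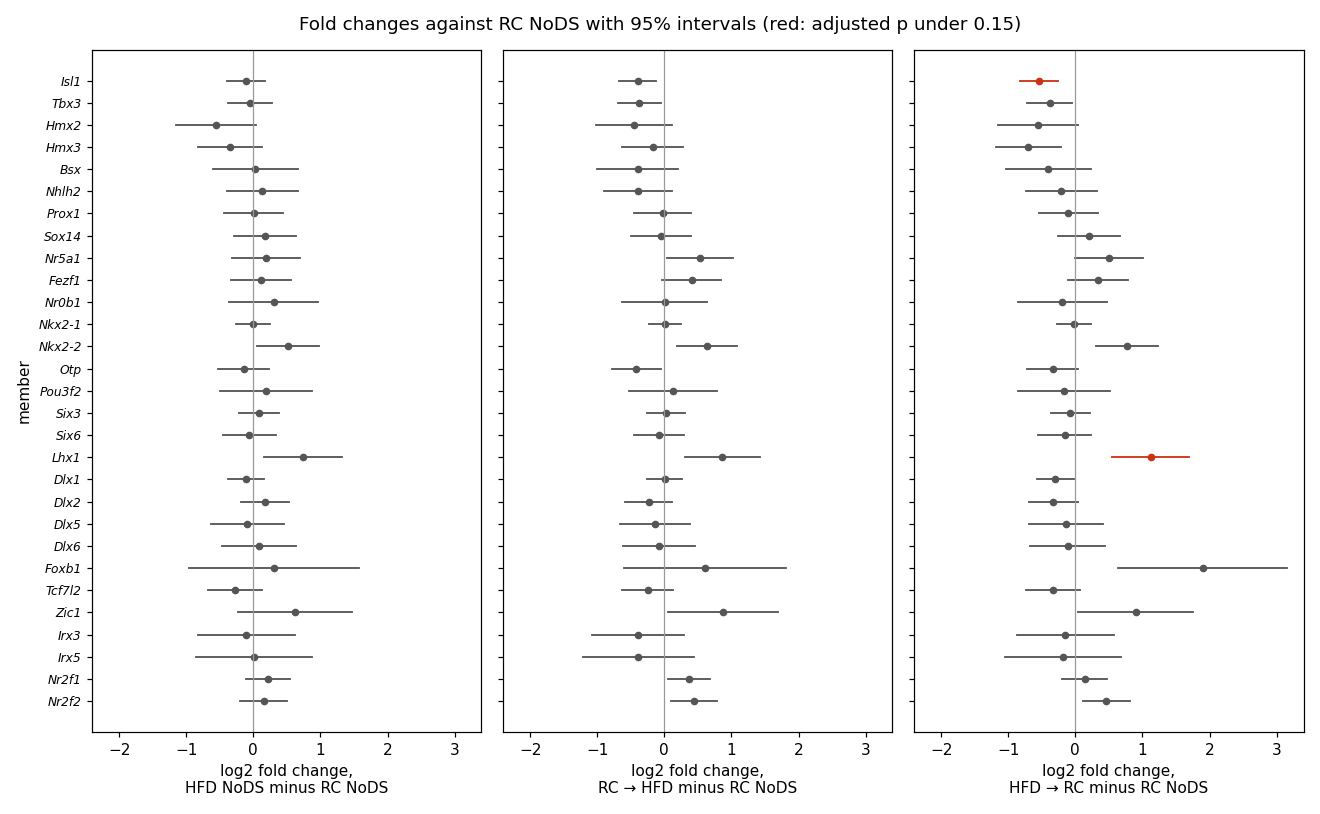
Log2 fold changes of the 29 tested members in HFD NoDS, RC → HFD and HFD → RC against RC NoDS, with 95% intervals and called members in red. Isl1 (-0.55) and Lhx1 (1.12) in HFD → RC are the called ones, and the 3 panels share the RC NoDS libraries.

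By region, the arcuate and tuberal members leaned lower in HFD → RC than in RC NoDS: 7 of 8 had a negative fold change, 1 was called, and the median was -0.39 against -0.00011 over all genes tested. In RC → HFD all 8 were negative with a median of -0.39 against -0.00094 over all genes, and 0 were called. The 5 ventromedial and basal members had medians of 0.34 and 0.41 in these comparisons, with 3 and 5 of them positive and 0 called. Both comparisons share the RC NoDS libraries. Isl1, Tbx3, Bsx and Nhlh2 of the arcuate list also varied together between libraries (r from 0.465 to 0.811), so the signs of members are not separate observations. The thalamic and broadly expressed members had medians of -0.01 and 0.06, with 3 of 6 positive in each. A lower level was not particular to the arcuate list. The 4 tested GABAergic and incertal members were all negative in HFD → RC (median -0.22), and 3 were in RC → HFD (-0.11). Of the 2 tested paraventricular members, 2 were negative in HFD → RC (-0.25) and 1 in RC → HFD (-0.14). Of 3 suprachiasmatic members, 2 and 1 were negative. Among 40 tested factors of 52 further hypothalamic ones, 0 were called in any pair of groups, and those with the smallest p between RC NoDS and HFD NoDS were Onecut3 (1.10 ± 0.54 on the log2 scale), Ebf3 (0.72 ± 0.37) and Satb1 (-0.25 ± 0.13).

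HFD NoDS was also compared with each DS group, and 0 members were called against RC → HFD (0.0157% of genes) or HFD → RC (0.0705% of genes), nor by DESeq2 or limma-voom. At an unadjusted p under 0.05 there were 4 members in each, where 7.49% and 7.93% of all genes lay. Dlx2 stood at 27.2, 28.0, 24.9, 24.5 and 21.7 CPM in HFD NoDS and ranged from 14.2 to 21.2 with a median of 20.1 in RC → HFD. It was the 1 member without overlap there (0.728% of genes), its log2 fold change being -0.41 ± 0.16 (adjusted p = 0.59). Against HFD → RC it was -0.50 ± 0.17 (adjusted p = 0.52), and -0.32 without replicates 13 and 17 of that group. In that comparison Isl1 was the 1 member without overlap (0.971% of genes). From HFD NoDS to RC → HFD the log2 fold change of Tbx3 was -0.33 ± 0.15 and that of Nhlh2, a basic helix-loop-helix factor, -0.53 ± 0.24, neither called. From HFD NoDS to HFD → RC that of Tbx3 was -0.34 ± 0.16.

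The effects of both switches were also added up, which gives the interaction of earlier and current diet. This comparison was added after the values had been seen. It called 0 of 29 members (0.0313% of genes), and 12 had an unadjusted p under 0.05 where 8.84% of all genes did. Isl1 had the smallest p of them, with a summed log2 change of -0.84 ± 0.19 (edgeR adjusted p = 0.18), and DESeq2 called Isl1, Tbx3 and Lhx1. Without replicate 20 of HFD NoDS 5 members were called, Isl1, Nr5a1, Nkx2-2, Lhx1 and Nr2f2. Tbx3 had -0.71 ± 0.22 and Dlx2 -0.73 ± 0.24, while Nr2f2 had 0.75 ± 0.23, Nr5a1 0.85 ± 0.33 and Lhx1 1.24 ± 0.38, with adjusted p from 0.26 to 0.43. All 8 arcuate and tuberal members had a negative sum, with a median of -0.62 against 0.0040 over all genes, and 3 of the 5 ventromedial and basal ones a positive sum. The 4 tested GABAergic and incertal members (median -0.23) and the 2 tested paraventricular ones (-0.42) also had negative sums, as did 2 of 3 suprachiasmatic ones. Region genes that are not members were summed alike. Of 6 ventromedial genes 5 were positive and 1 negative (median 0.54), of 9 arcuate peptide genes 8 were negative and 1 positive (-0.31), and all 5 lateral peptide genes were positive (0.66). In this sum the tested ependymal and tanycyte genes had a median of -0.63 and the 8 neuronal genes a median of 0.23. The part of all these lists in the result was not tested.

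**Figure D3:**
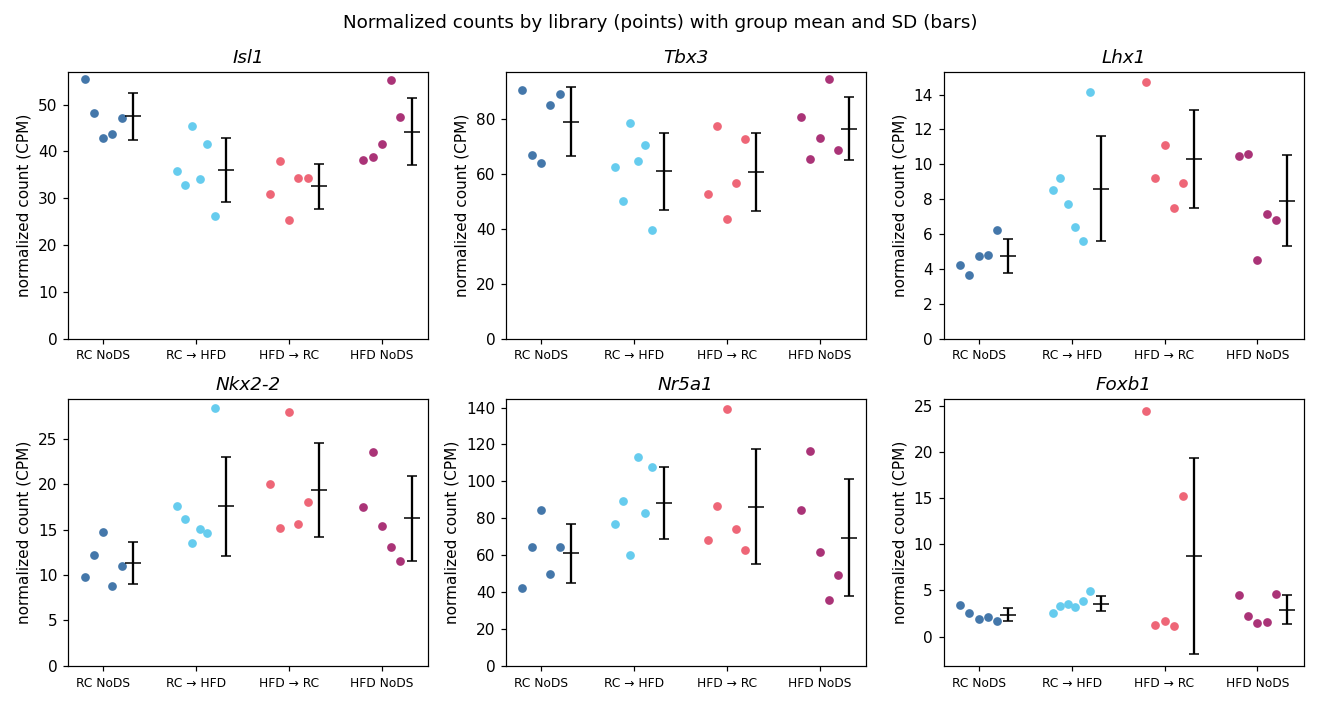
Normalized counts (CPM) of Isl1, Tbx3, Lhx1, Nkx2-2, Nr5a1 and Foxb1 in each library by diet group, with the mean and SD beside the points. Isl1 in HFD → RC lies between 25.3 and 37.9 CPM, below all RC NoDS libraries, and 2 HFD → RC libraries stand apart for Foxb1.

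Foxb1, a forkhead factor of the mammillary bodies, showed the largest spread of the tested members. Its SD of log2 CPM within groups was 1.09, above 99.2% of the genes tested. It stood at 24.4 CPM in replicate 13 and 15.3 CPM in replicate 17 of HFD → RC, and at 1.30, 1.68 and 1.16 CPM in the other libraries of that group. In RC NoDS it stood at 3.47, 2.52, 1.88, 2.14 and 1.70 CPM, in HFD NoDS at 4.51, 2.25, 1.52, 1.58 and 4.66 CPM, and in RC → HFD between 2.57 and 4.99 CPM. Its higher mean in HFD → RC therefore came from 2 libraries. Its log2 fold change against RC NoDS was 1.90 with edgeR, 0.80 with limma-voom, 1.04 without replicate 13 and -0.76 without both. That between the DS groups was 1.29 with edgeR, 0.18 with limma-voom, 0.44 without replicate 13 and -1.37 without both. With these libraries left out, neither Isl1 (-0.55, adjusted p = 0.37) nor Lhx1 (0.97, adjusted p = 0.39) was called between RC NoDS and HFD → RC.

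After Foxb1, the widest spreads within groups were those of Zic1 (SD 0.75 on the log2 scale), Irx5 (0.68), Bsx (0.60), Irx3 (0.59) and Pou3f2 (0.58). Zic1 ranged from 4.53 to 27.1 CPM, Bsx from 4.36 to 23.3 CPM and Pou3f2 from 2.56 to 10.8 CPM over the 21 libraries. The narrowest were those of Nkx2-1 (0.20), Dlx1 (0.22) and Isl1 (0.23). Nkx2-1 stood at 71.3, 63.0, 57.4, 64.2 and 66.6 CPM in RC NoDS and at 65.2, 59.3, 51.0, 61.6 and 80.8 CPM in HFD → RC. The 95% interval of its log2 fold change between these groups ran from -0.27 to 0.23. Against the trend of all genes at its own level, the variation of Nr5a1 between libraries (biological coefficient of variation 0.263) was 2.24 times the trend, that of Fezf1 1.88, of Foxb1 1.74 and of Zic1 1.66, while Isl1 and Nkx2-1 stood at 1.03 and 1.08.

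Nr5a1, a nuclear receptor required for the ventromedial nucleus to form, stood at 42.0, 64.3, 84.3, 49.8 and 64.3 CPM in RC NoDS, at 68.0, 86.9, 139, 74.1 and 62.6 CPM in HFD → RC and at 84.6, 117, 61.7, 35.4 and 49.5 CPM in HFD NoDS, and ranged from 60.2 to 113 CPM with a median of 86.2 in RC → HFD. All 4 groups overlapped, and libraries within HFD NoDS differed more than group means did. Fezf1, a zinc finger factor of the same nucleus, stood at 56.8, 57.6, 104, 59.4 and 53.0 CPM in HFD → RC and at 76.0, 83.1, 43.8, 36.2 and 43.5 CPM in HFD NoDS. High and low libraries were largely the same for both.

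**Figure D4:**
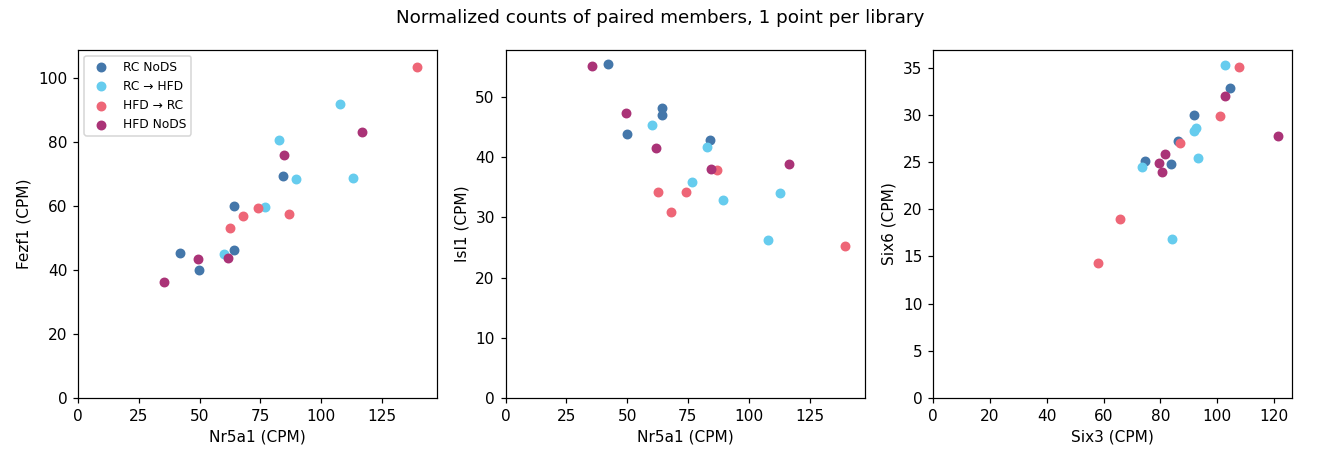
Normalized counts (CPM) of Nr5a1 and Fezf1, Nr5a1 and Isl1, and Six3 and Six6, 1 point per library, coloured by diet group. Nr5a1 and Fezf1 rise together from 35.4 and 36.2 CPM to 139 and 104 CPM, and Isl1 lies low where Nr5a1 lies high.

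To describe which members varied together within the groups, group means were removed from log2 CPM and pairs of genes of a region, of paralogs, and of a factor with a peptide were correlated over the 21 libraries. Of 46 listed pairs, 29 had both genes tested, and 7 had a Benjamini-Hochberg adjusted p under 0.05 for both r and rho (permutation within groups, 100000 draws, two-sided). Nr5a1 and Fezf1 were the closest, with r = 0.896 and rho = 0.879 (permutation p = 1e-05, the smallest these draws give, for both, adjusted 0.00029), and r = 0.840 without the 2 libraries farthest from the median of Nr5a1. Isl1 and Tbx3 had r = 0.811 and rho = 0.770 (permutation p = 5e-05 and 0.00019, adjusted 0.00072 and 0.0018, and r = 0.713 without the 2 farthest). Other factors listed for the ventromedial and basal region did not pass with Nr5a1, namely Nr0b1 with r = 0.339 and Nkx2-1 with r = 0.085 (adjusted permutation p = 0.30 and 0.86).

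The other 5 pairs joined paralogs, 2 arcuate factors, or a factor and a peptide. Six3 and Six6, homeobox genes of the anterior hypothalamus and eye field, had r = 0.808 and rho = 0.857 (permutation p = 0.00016 and 6e-05, adjusted 0.0015 and 0.00087, r = 0.813 without the 2 farthest). Bsx, a homeobox factor of Agrp and Npy neurons, and Tbx3 had r = 0.784 and rho = 0.638 (permutation p = 0.00040 and 0.0063, adjusted 0.0023 and 0.026, r = 0.608 without the 2 farthest). Otp and Sst, the somatostatin gene, had r = 0.779 and rho = 0.748 (permutation p = 0.00034 and 0.00065, adjusted 0.0023 and 0.0047, r = 0.686 without the 2 farthest). Nr5a1 and Adcyap1, the PACAP gene of ventromedial neurons, had r = 0.758 and rho = 0.679 (permutation p = 0.0013 and 0.0039, adjusted 0.0060 and 0.019, r = 0.650 without the 2 farthest). Nr2f1 and Nr2f2 had r = 0.668 and rho = 0.658 (permutation p = 0.0014 and 0.0034, adjusted 0.0060 and 0.019, r = 0.576 without the 2 farthest).

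Paralogs that lie side by side in the genome did not pass. Dlx1 and Dlx2, both on chromosome 2, had r = 0.595 and rho = 0.444 (permutation p = 0.016 and 0.075, adjusted 0.057 and 0.17, r = 0.431 without the 2 farthest). For Irx3 and Irx5 on chromosome 8 r was 0.361, for Hmx2 and Hmx3 on chromosome 7 it was 0.019, and for Dlx5 and Dlx6 on chromosome 6 it was -0.159, with adjusted permutation p from 0.30 to 0.94. Neither Nr5a1, Foxb1 nor Nkx2-1 passed with Hcrt (r = 0.080, 0.146 and -0.256; adjusted permutation p = 0.86, 0.76 and 0.58). Arcuate factors did not pass with the peptides paired with them. For Isl1 r was 0.450 with Agrp and 0.038 with Pomc, and for Tbx3 0.245 with Pomc. Bsx had 0.239 with Agrp and 0.480 with Npy, and Hmx2 and Hmx3 had 0.447 and 0.259 with Ghrh. Otp with Agrp (0.559) and Foxb1 with Pmch (0.120) did not pass either. Adjusted permutation p of r for these pairs ran from 0.10 to 0.91.

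Over all 406 pairs of tested members, 12 (2.96%) had r of at least 0.7 and 6 (1.48%) had r of -0.7 or lower, against 0.642% and 0.480% of all pairs of tested genes. The pattern is described here without a test, since it was seen in the same values, and all points share their libraries and scaling. Nr5a1, Fezf1, Nr2f2, Nr2f1, Nkx2-2 and Sox14 were positively correlated in all 15 of their pairs (r from 0.458 to 0.896). Isl1, Tbx3, Bsx and Nhlh2 were so in all 6 (r from 0.465 to 0.811). Between these 2 blocks all 24 correlations were negative, from -0.858 for Bsx and Nkx2-2 to -0.279, with -0.751 for Isl1 and Nr5a1 (rho = -0.734, and r = -0.756 without the 2 libraries farthest in Isl1). The blocks do not follow the region lists throughout, since the arcuate Sox14 lay with Nr5a1, and Nkx2-1, Nr0b1, Hmx2, Hmx3 and Prox1 lay in neither. Another block held Six3, Six6 and Otp (r from 0.542 to 0.808).

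**Figure D5:**
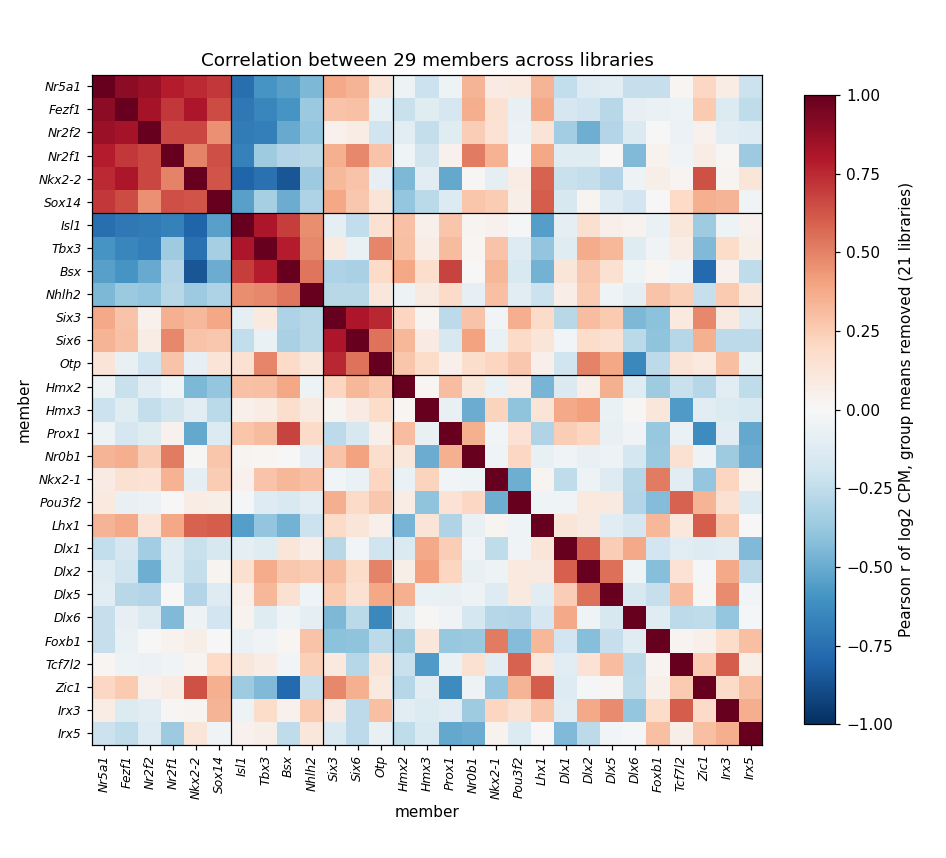
Pearson r between the 29 tested members over 21 libraries after group means were removed, with members ordered by the blocks that were seen and lines between blocks. The first 6 members and the next 4 are positive within and negative between blocks, with r from -0.858 to -0.279 in the 24 pairs between them.

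Single libraries show this pattern. Replicate 15 of HFD → RC had the highest Nr5a1 (139 CPM) and the lowest Isl1 (25.3 CPM) of the 21 libraries, with Bsx at 4.99, Tbx3 at 43.6 and Nkx2-2 at 27.9 CPM. Replicate 12 of RC → HFD came next in Isl1 (26.3 CPM), with Nr5a1 at 108, Bsx at 4.36, Tbx3 at 39.6 and Nkx2-2 at 28.4 CPM. At the other end, replicate 23 of HFD NoDS had Nr5a1 at 35.4 and Isl1 at 55.2 CPM, and replicate 1 of RC NoDS had 42.0 and 55.5 CPM. The ratio of Nr5a1 to Isl1 in CPM was 0.756, 1.33, 1.97, 1.14 and 1.37 in RC NoDS, 2.20, 2.29, 5.50, 2.16 and 1.83 in HFD → RC and 2.22, 3.00, 1.49, 0.641 and 1.04 in HFD NoDS, and ranged from 1.32 to 4.10 with a median of 2.43 in RC → HFD. Groups overlapped in this ratio, and RC NoDS had no library above 1.97.

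Other measures moved with these members over the same 21 group-centred libraries, given as descriptions. The summed level of 8 neuronal genes had r = 0.810 with Nr5a1 and -0.860 with Isl1, and ran from 3314 to 3581 CPM in RC NoDS and from 3544 to 4198 CPM in HFD → RC. The 9 tanycyte and ependymal genes, all tested, had r = -0.425 with Nr5a1 and 0.598 with Isl1, and ran from 471 to 649 CPM in RC NoDS and from 404 to 574 CPM in HFD → RC. A list for cortex and hippocampus had r = 0.860 with Nr5a1, although Neurod6, Neurod2 and Emx1 in it averaged at most 7.52 reads and its sum came from Nrgn, Wfs1 and Rasgrf2. The 8 oligodendrocyte genes had r = 0.530 with Lhx1, 0.626 with Zic1 and 0.583 with Six3. From RC NoDS to HFD → RC all 8 had a positive fold change, 3 were called and the median was 0.82 on the log2 scale, against -0.00011 for all genes tested, and their sum ran from 2273 to 3450 CPM in RC NoDS and from 2837 to 8613 CPM in HFD → RC. The part of these cell type lists in the differences of Isl1 and Lhx1 between groups was not tested. The share of genes at 0, whose fit as a covariate is given above, had r = 0.299 with Nr5a1 and -0.152 with Isl1.

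When the difference of the log2 levels of Nr5a1 and Isl1 was added to the fit as a covariate, a choice made after the values had been seen, several fold changes between RC NoDS and HFD → RC became smaller: Tbx3 was -0.07 in place of -0.38, Nr2f2 0.06 in place of 0.46, Nkx2-2 0.30 in place of 0.77, Zic1 0.45 in place of 0.90 and Lhx1 0.83 in place of 1.12. All of these but Zic1 and Lhx1 belong to the 2 opposed blocks. Those blocks were seen in the same libraries, and their members follow Nr5a1 or Isl1 there. Smaller fold changes of block members are therefore built into this covariate and are no separate result. The ratio of Nr5a1 to Isl1 also ran from 0.756 to 1.97 in RC NoDS and from 1.83 to 5.50 in HFD → RC. For other genes, Zic1 and Lhx1 included, fits with the covariate thus cannot separate it from diet. Of Nr2f1 between RC NoDS and RC → HFD, 0.03 was left of 0.37.

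For the 6 tested members with the widest spread, the genes most alike among all 12768 were listed. Those of Foxb1 were Cpne9 (r = 0.896), Grm2, a metabotropic glutamate receptor (0.817), and Cpne5 (0.726). Those of Zic1 were Fam176a (0.809), Cplx1 (0.807) and Larp6 (0.795), those of Irx5 were Sco1 (0.831), Rnf217 (0.814) and Mosc2 (0.809), and those of Bsx were Crtac1 (0.874), Antxr1 (0.871) and Parp14 (0.858). Those of Irx3 were Slc25a25 (0.795), Sirt7 (0.793) and Ost4 (0.755), and those of Pou3f2 were Uvrag (0.847), N6amt2 (0.833) and Nqo1 (0.815). None of these 18 genes was a member. They are descriptions over 21 libraries that share their scaling.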

How the data were processed

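Gene expression was measured by RNA-seq in 21 libraries of VH tissue. The authors aligned reads to mm9 with STAR 2.5.1b, re-sampled libraries to a common depth and deposited whole-number counts of reads per gene. Picard 2.7.1 is also named in the submitters' processing notes. All 21654 identifiers were matched to GENCODE gene models of mm9, used for exon lengths and overlaps.

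A mean of 50 reads or more was required, and the genes left were tested with edgeR 4.0.16 (R 4.3.3; TMM factors from 0.982 to 1.02, quasi-likelihood F-test, 1 mean for each of 4 groups, 17 residual degrees of freedom), as differences of log2 levels, second group minus first. Benjamini-Hochberg adjustment covered every gene in a fit, and calls used the study's threshold of 0.15. Correlations used log2 CPM with a prior count of 2. Alternatives were limma 3.58.1, DESeq2 1.42.0, other filters and scalings, covariates, and fits with 1 of 21 libraries omitted. Figures were drawn with matplotlib 3.10.9 (Python 3.11.15). In simulated data the fit and the correlation test were checked before use. Reads carry no molecular identifiers, so counting error covers the sampling of reads only.

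The members and all gene lists were chosen with earlier results of these data known. Genes named are the 36 members, the genes of the listed pairs, the 3 genes most alike to each of the 6 members of widest spread, and, of the further factors, the 3 with the smallest p.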

Additional observations from a re-analysis of the deposited data

Results flagged for a closer look

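In 2 of 136 groups of libraries, counting each of 34 members averaging at least 5 reads in each of 4 diet groups, the highest or lowest library stood apart from the others of its group. Chance alone would give about 1 in 20 groups, or 6.8 here. Fezf1 stood at 104 CPM in replicate 15 of HFD → RC, where the other libraries of that group lay between 53.0 and 59.4 CPM. Nkx2-2 stood at 28.4 CPM in replicate 12 of RC → HFD, where the others lay between 13.5 and 17.6 CPM. These are the 2 libraries with the lowest Isl1 of all.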

How the results depend on the processing

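The number of members called between RC NoDS and HFD → RC was 2, Isl1 and Lhx1, and depended on the setting. It was 0 with a minimum mean of 5 reads, without TMM, with limma-voom, with limma-trend, with the share of genes at 0, Hcrt or the difference of Nr5a1 and Isl1 as a covariate, and without both HFD → RC libraries high in Foxb1, 1 with no filter and 3 with DESeq2 (Nkx2-2 added). With 1 library left out it ran from 0 to 5, being 5 without HFD → RC replicate 16 and 0 without RC NoDS replicates 1, 2 or 5, RC → HFD replicates 7 or 8, or HFD → RC replicates 13, 14 or 15, and 1 without RC NoDS replicate 3, RC → HFD replicates 9 or 10, HFD → RC replicate 17 or HFD NoDS replicate 21. For the sum of both switch effects it was 0, but 3 with DESeq2, 1 with limma-voom, with either of the first 2 covariates or without both Foxb1 libraries, and from 0 to 5 with 1 library left out, 5 without HFD NoDS replicate 20 and 1 without RC NoDS replicate 3, RC → HFD replicates 9 or 10, HFD → RC replicate 14 or HFD NoDS replicate 19. Across all 4 groups DESeq2 called 2. The covariate of Nr5a1 and Isl1, the omission of both Foxb1 libraries and the summed effects were chosen after seeing the data. Nr5a1 and Isl1 make up that covariate and were left out of the members counted with it. Its count of 0 thus says nothing of Isl1. The cause was not tested. In every other pair of groups the count was 0 under all alternatives run.

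For Isl1 and Lhx1, fold changes were steadier than calls: that of Isl1 between RC NoDS and HFD → RC ran from -0.61 to -0.47 and that of Lhx1 from 0.83 to 1.24. The range of Isl1 leaves out the covariate of Nr5a1 and Isl1. Several members not called moved more there, Tbx3 from -0.49 to -0.07, Nr2f2 from 0.06 to 0.61 and Zic1 from 0.10 to 1.11. The fold change of Foxb1 reversed to -0.76 against RC NoDS and to -1.37 between the DS groups without both libraries. Of the 29 pairs 7 passed, and 7 or 8 did under every alternative. The correlation of Hmx2 and Hmx3 ran from -0.080 to 0.26 with 1 library left out and changed sign in 7 of 21 cases. No paired analysis was possible because the labels give no replicate number to more than 1 group. Low members and small changes are limited by the pooled animals and by uneven capture of genes.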

Other observations

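Six3 moved with genes outside its own region. Over the 21 group-centred libraries it had r = 0.771 with Pomc, 0.695 with Oxt and 0.797 with the summed level of 8 microglial genes, as descriptions with no test. Zic1 had r = 0.674 with the summed suprachiasmatic peptides Vip, Prok2, Nms and Grp and 0.615 with Hcrt, and Lhx1 had r = 0.674 with the same peptides.

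Outside the members, the covariate of Nr5a1 and Isl1 left 10 of 10 genes called between RC NoDS and HFD NoDS and added 3, while between RC NoDS and HFD → RC it left 1 of 36, Trh, and between HFD NoDS and HFD → RC the number called went from 9 to 71, with 8 in both. The 36 also became 1 with the share of genes at 0 or Hcrt as a covariate and on leaving out replicate 1, 2 or 5 of RC NoDS or 13 or 14 of HFD → RC. They became 2 on leaving out replicate 15 of the latter group and 205 on leaving out its replicate 16. Without the covariate the log2 fold change of Npy between RC NoDS and HFD NoDS was -1.26 (edgeR adjusted p = 7.8e-05), and with it -1.22 (adjusted p = 5.1e-06). Between RC NoDS and RC → HFD, Npy went from -1.31 to -1.06 with the covariate (edgeR adjusted p = 2.4e-05 and 0.0012). Agrp went from -1.24 to -0.98 (0.0015 and 0.077), and Cartpt moved away from no change, from 0.43 to 0.62 (0.54 and 0.12). Over the group-centred libraries, Npy had r = 0.586 with Isl1 and -0.512 with Nr5a1, Agrp 0.450 and -0.429, and Cartpt 0.504 and -0.477. The median ratio of Nr5a1 to Isl1 was 1.33 in RC NoDS and 2.43 in RC → HFD. Such shifts are therefore partly built into the covariate, and fits with it cannot separate it from diet.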
